A study of Mus musculus with 6 samples.

Results

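The genes of glycolysis and of pyruvate entry into mitochondria were compared between cDNT cultured with and without IL-10. They were chosen by pathway membership, as the genes for glucose and lactate transport, the glycolytic steps, the mitochondrial pyruvate carrier, the pyruvate dehydrogenase complex with a pair of its kinases, and Hif1a. This gave 34 genes of the 29393 in the count table, and all 34 had enough counts to be tested. cDNT are double negative T cells that were converted ex vivo from CD4+CD25- T cells of C57BL/6 mice. The conversion took place in coculture with mature dendritic cells in the presence of IL-2, and the cells were then sorted. The general protocol of the study names CD45.1-positive donors, and its sequencing methods do not say whether the sequenced cells came from such donors. The labels give adult mice and spleen as the source. The W/ IL-10 group (n = 3 libraries) received IL-10 at 50 ng/ml for 24 h, and the W/O IL-10 group (n = 3 libraries) received none. According to the methods of the study the IL-10-treated cells were also stimulated with anti-CD3/CD28 antibodies, and neither the methods nor the labels say so of the control cells. Both groups were thus cultured T cells that had been in contact with dendritic cells, and no freshly isolated T cells were among the groups. The submitters describe the sequencing as done in duplicate, whereas 3 libraries per group were deposited, and whether these came from separate cultures is not stated, so the p-values measure the spread between these libraries, which may be technical.

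Glycolysis splits glucose into pyruvate in the cytosol. Activated T cells are known to raise glucose uptake and to turn much of the pyruvate into lactate, which leaves the cell through monocarboxylate transporters, while the rest enters mitochondria and becomes acetyl-CoA by the pyruvate dehydrogenase complex. Many steps have several isoenzymes encoded by separate genes, and the transcription factor HIF-1, whose oxygen-regulated subunit is encoded by Hif1a, is a classical activator of the glycolytic genes. In macrophages IL-10 has been described as a restraint on glycolysis, and the question put to the data here was whether cDNT W/ IL-10 held different mRNA levels along this route.

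Total counts per library were 22953260 to 23967088 W/O IL-10 and 21619420 to 22958891 W/ IL-10, and a count of 3 corresponded to 0.125 to 0.139 CPM (counts scaled to a common library size with edgeR's TMM factors, so that libraries can be compared). The 34 genes held 0.724% to 0.806% of all counts, with overlapping groups. The T cell identity was checked on 10 T cell genes, whose summed level was 3251 to 3730 CPM W/O IL-10 and 4139 to 4273 CPM W/ IL-10 and did not overlap. Of these 10, 5 were separate and higher W/ IL-10 (11.3% of all tested genes were) and 1, Cd5, was separate and lower (11.2%). Cd5 was the only one of these 10 with an adjusted p under 0.05 (log2 fold change -0.47, adjusted p = 0.0467, edgeR), where 2.19% of all tested genes had one. Cd4 had 8 to 38 counts per library, whereas Cd8a had 2316 to 3786 and Cd8b1 787 to 1521, so Cd8 mRNA was present in cells labelled double negative. The 3 coreceptor genes together summed to 129.85 to 164.76 CPM W/O IL-10 and 198.42 to 232.9 CPM W/ IL-10. Cd8a (log2 fold change 0.56, adjusted p = 0.0369, edgeR) and Cd8b1 (0.67, adjusted p = 0.0306, edgeR) were separate and higher W/ IL-10. The groups of Cd4 overlapped (-0.65, adjusted p = 0.545, edgeR). NK cell genes (5 genes) summed to 910.7 to 969.51 CPM W/O IL-10 and 1040 to 1152 CPM W/ IL-10, but the higher sum rested on Nkg7 (log2 fold change 0.90, adjusted p = 0.00467, edgeR), while Eomes (-0.51, adjusted p = 0.0176) and Ncr1 (-1.15, adjusted p = 0.046) fell and the median of the list was -0.27. The summed levels of 5 B cell genes (59.38 to 153.22 CPM), 9 dendritic cell genes (85.7 to 118.84 CPM), 7 macrophage genes (26.76 to 34.97 CPM) and 6 red cell genes (0.67 to 5.52 CPM) overlapped between the groups. Of the dendritic cell genes, Clec9a and Siglech had 0 or 1 count in each library, whereas Itgax had 461 to 1128 counts and rose (log2 fold change 1.09, adjusted p = 0.00383, edgeR), H2-Ab1 had 601 to 1851 counts in overlapping groups, and Ccl22 was separate and lower without passing the test (-2.67 on the log2 scale, adjusted p = 0.102, edgeR). Xcr1 was separate and higher (0.60, adjusted p = 0.184, edgeR) and Zbtb46 separate and lower (-0.44, adjusted p = 0.212, edgeR). Of the macrophage genes, Cd68 was separate and higher (0.32, adjusted p = 0.159, edgeR) and Cd14 separate and lower (-0.56, adjusted p = 0.287, edgeR). The part of these differences in the results on the pathway genes was not tested. In such bulk libraries fewer cells of a type and less RNA per cell cannot be told apart.

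None of the 34 genes was called different between the groups. A gene was called at a fold change of at least 1.5 with an adjusted p under 0.05, from the quasi-likelihood test of edgeR, adjusted by Benjamini-Hochberg over the 14916 genes tested. The count of called members was 0, where 1.45% of all tested genes were called, and 0 members had an adjusted p under 0.05 at any fold change, where 2.19% of all tested genes did. DESeq2 gave an adjusted p under 0.05 to 1 member, Slc2a3, and to 4.67% of all tested genes. At an unadjusted p under 0.05 there were 5 members (14.7%), the same share as among all tested genes (14.7%). Of these 5, Slc2a3, Pkm and Ldha had higher values W/ IL-10 (7.58% of all tested genes did at this p), and Pfkm and Eno3 had lower values (7.17%). The median log2 fold change of the 34 genes, W/ IL-10 over W/O IL-10, was 0.014, with 19 values above 0 and 15 below (48.8% of all tested genes were below 0), beside a median of 0.006 over all tested genes. The 2940 tested genes at least as abundant as the median member (82.78 CPM) had a median of 0.036.

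The precision of these libraries limited how large a difference could have been missed. For 28 of the 34 genes the 95% interval of the fold change lay within 1.5-fold in either direction. The other 6 intervals reached beyond it, namely those of Pfkm, Eno2, Eno3, Ldhb, Mpc1 and Hif1a. For 21 members the estimated change was under 10% of the W/O IL-10 level. Individual log2 fold changes ran from -0.60 (Eno2) to 0.37 (Slc2a3).

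**Figure D1:**
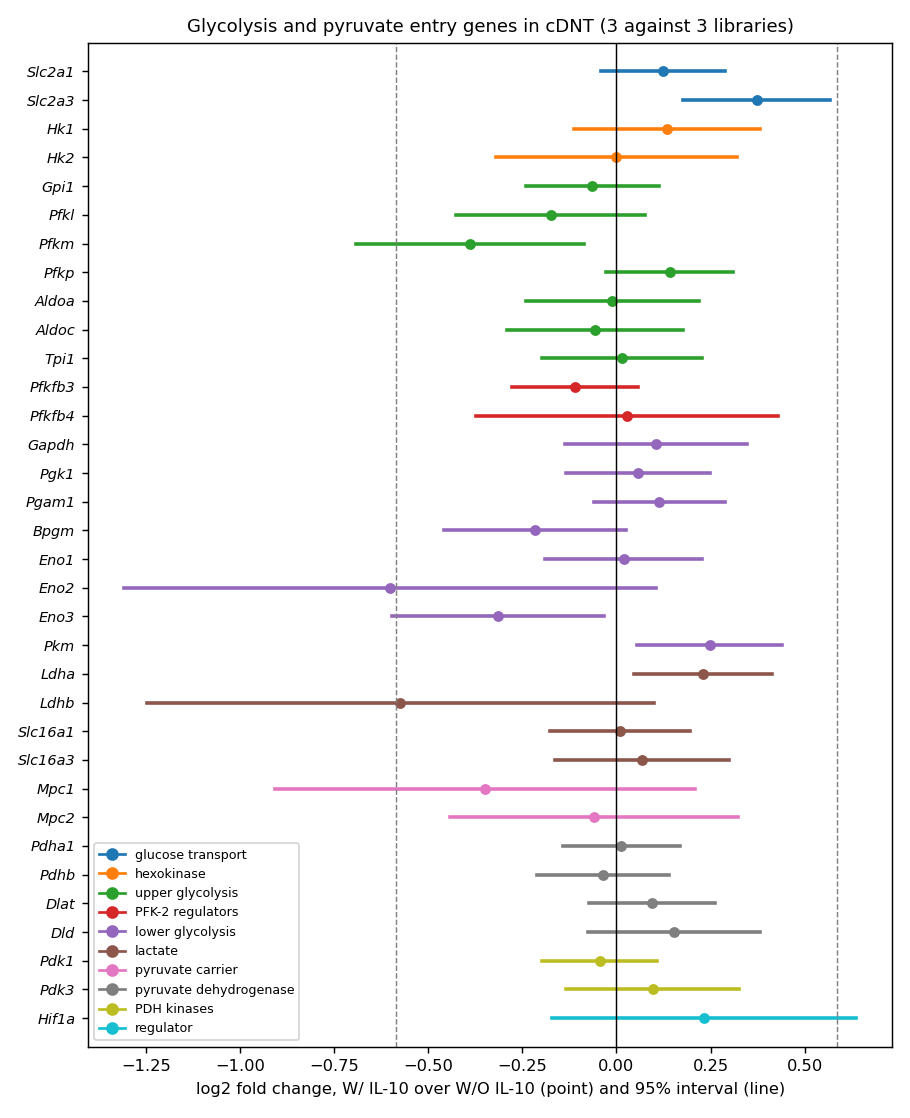
Log2 fold change, W/ IL-10 over W/O IL-10, of the 34 genes in pathway order (points, coloured by step) with 95% intervals (lines) from edgeR, 3 libraries per group; dashed lines mark a 1.5-fold change either way. The interval lies inside the dashed lines for 28 of the 34 genes, and no gene reached an adjusted p under 0.05.

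In 10 of the 34 genes (29.4%) the libraries of the groups did not overlap, where 22.6% of all tested genes did not. Slc2a1, Slc2a3, Pfkp, Pgam1, Pkm, Ldha and Hif1a were higher in each W/ IL-10 library than in each W/O IL-10 library (7 genes, 20.6%, where 11.3% of all tested genes were). Pfkm, Bpgm and Eno3 were lower (3 genes, 8.8%, where 11.2% of all tested genes were). The summed levels of the T cell, coreceptor and NK cell genes were also separate and higher W/ IL-10, with single genes going the other way as given above. None of these 10 differences had an adjusted p under 0.05 (edgeR; the lowest was 0.0701), and the values are given by library so that their size can be read against the spread.

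The proximal promoters of 33 of the 34 genes, all but Slc2a3, were read from the RefSeq promoter table (GRCm38.p6) as the 250 bases before an annotated start. For each gene, members and others alike, the first start listed was taken, which need not be the start used in these cells. They are shown for 5 of the 10 non-overlapping genes, those whose window holds no annotated exon base, to show the letters next to the start of members that were separate by library and to let the recognition letters of HIF-1, MYC family and STAT factors be seen in place. Capitals mark ACGTG or GCGTG on either strand (the core letters of HIF-1 sites), CACGTG (the E-box of MYC and related factors, which is its own reverse complement and contains ACGTG on both strands, so that it counts once as an E-box and as a pair of core matches) and TTCNNNGAA (the STAT palindrome). All 5 windows are on the plus strand, at chr7:46845554-46845803 (Ldha), chr19:41911621-41911870 (Pgam1), chr12:73907617-73907866 (Hif1a), chr15:98092339-98092588 (Pfkm) and chr11:70656926-70657175 (Eno3). The first 3 genes had the higher values W/ IL-10 and the last 2 the lower.
Ldha: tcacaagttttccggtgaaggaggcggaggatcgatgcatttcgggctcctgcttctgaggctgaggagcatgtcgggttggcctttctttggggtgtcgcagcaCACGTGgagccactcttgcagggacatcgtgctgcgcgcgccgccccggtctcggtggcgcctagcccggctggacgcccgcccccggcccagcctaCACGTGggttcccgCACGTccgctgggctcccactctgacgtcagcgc
Pgam1: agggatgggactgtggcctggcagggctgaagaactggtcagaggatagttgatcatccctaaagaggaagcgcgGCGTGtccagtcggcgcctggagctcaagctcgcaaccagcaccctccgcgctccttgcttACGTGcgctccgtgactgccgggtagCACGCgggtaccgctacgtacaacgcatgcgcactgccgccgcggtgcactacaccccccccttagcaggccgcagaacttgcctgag
Hif1a: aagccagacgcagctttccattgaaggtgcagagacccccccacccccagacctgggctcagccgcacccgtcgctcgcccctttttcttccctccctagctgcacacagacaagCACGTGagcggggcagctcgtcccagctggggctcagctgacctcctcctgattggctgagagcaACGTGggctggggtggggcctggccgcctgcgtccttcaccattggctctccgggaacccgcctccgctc
Pfkm: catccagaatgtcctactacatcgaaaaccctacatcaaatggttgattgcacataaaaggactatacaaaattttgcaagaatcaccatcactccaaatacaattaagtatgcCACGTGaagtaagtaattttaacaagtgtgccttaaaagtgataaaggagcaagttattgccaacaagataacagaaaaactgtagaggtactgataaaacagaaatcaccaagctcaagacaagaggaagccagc
Eno3: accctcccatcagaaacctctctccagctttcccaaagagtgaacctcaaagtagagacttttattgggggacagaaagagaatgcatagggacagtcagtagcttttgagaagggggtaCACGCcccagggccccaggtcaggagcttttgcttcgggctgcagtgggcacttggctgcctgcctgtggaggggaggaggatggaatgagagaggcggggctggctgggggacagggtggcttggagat

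The Ldha window held 5 core matches, 4 of them within its 2 E-boxes. The Pgam1 window held 3 core matches, the Hif1a window 3 with 1 E-box, the Pfkm window 2 within 1 E-box, and the Eno3 window 1. Among these 5 genes, those with higher and those with lower values both had core letters, and none of the 5 windows had the STAT palindrome. The windows of the other separate genes held 2 core matches for Slc2a1, 3 for Pfkp and 0 for Pkm (higher W/ IL-10), and 0 for Bpgm (lower). Over the 33 members ACGTG or GCGTG occurred in 24 windows (72.7%), where 38.6% of 27025 mouse promoter windows of the same length had it. CACGTG occurred in 4 member windows (12.1%, 6.0% of all windows), and TTCNNNGAA in 0 (7.2% of all windows). The member windows were richer in G and C than all windows, with a median GC content of 61.6% and 52.0%, and its part in the motif shares was not tested. A match of letters is a description of the sequence and not a binding site, and its absence from this window says nothing of the factor elsewhere. The windows of Ldha and Hif1a lie inside the span that GENCODE gives these genes, downstream of a more distant annotated start.

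Glucose enters T cells mainly through GLUT1 and GLUT3, encoded by Slc2a1 and Slc2a3. Slc2a3 (chr6:122727809-122801640, minus strand, GRCm38 as for the other gene positions, from GENCODE M21) measured 184.4, 160 and 157.3 CPM in W/O IL-10 replicates 1 to 3 and 219.6, 204.9 and 225.1 CPM in the W/ IL-10 replicates. All W/ IL-10 libraries thus lay above all W/O IL-10 libraries, with means of 167.2 ± 14.91 and 216.5 ± 10.49 CPM (SD, n = 3). The fold change was 1.295 (95% interval 1.131 to 1.481, log2 fold change 0.37 ± 0.086 SE), with an adjusted p of 0.0701 (edgeR), the lowest among the members. This value sat close to the threshold and its side depended on the setting. The adjusted p of Slc2a3 was 0.0096 with DESeq2, 0.00898 in edgeR without a filter on low counts (where 4.22% of all tested genes passed) and 0.0324 in edgeR with offsets for GC content and exon length, and ran from 0.00898 to 0.0952 over all settings that kept the 6 libraries. It was 0.00993 without W/O IL-10 replicate 1 (where 3.58% of all tested genes passed) and at most 0.273 when another library was left out. The estimated log2 fold change moved less, between 0.32 and 0.44, over the left-out libraries. Slc2a1 measured 75.63, 76.61 and 70.42 CPM W/O IL-10 and 78.47, 85.26 and 78.79 CPM W/ IL-10. Its groups were also separate, but by a small margin, with a log2 fold change of 0.12 ± 0.073 SE and an adjusted p of 0.485 (edgeR).

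Hexokinases trap glucose as glucose 6-phosphate. Hk1, the isoenzyme with the higher level per exon kilobase, measured 202.3, 190.5 and 210.7 CPM W/O IL-10 and 184, 238 and 240.1 CPM W/ IL-10. Its W/ IL-10 libraries held both the lowest and the highest of the 6 values, and the adjusted p was 0.619 (edgeR, log2 fold change 0.13 ± 0.11 SE). Hk2, the isoenzyme usually associated with growth and activation, had means of 32.46 ± 5.495 CPM W/O IL-10 and 32.43 ± 4.391 CPM W/ IL-10 (SD, n = 3). The 95% interval of its fold change was 0.8 to 1.248.

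**Figure D2:**
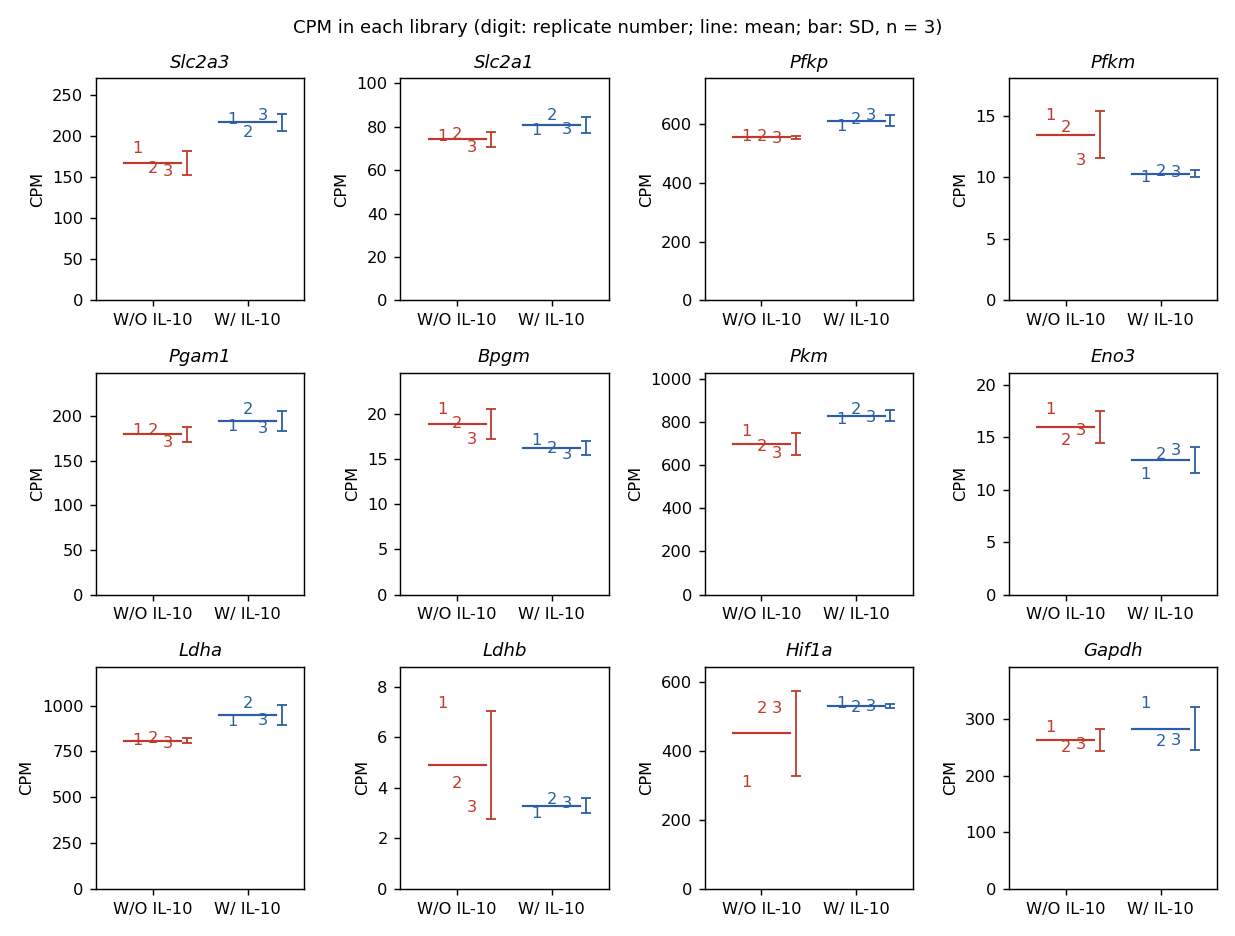
CPM in each library (vertical axis from 0; the digit is the replicate number) of 12 genes (red for W/O IL-10, blue for W/ IL-10), with the mean (line) and SD (bar, n = 3). The groups are separate for Slc2a3, Slc2a1, Pfkp, Pgam1, Pkm, Ldha and Hif1a (higher W/ IL-10) and for Pfkm, Bpgm and Eno3 (lower), overlap for Ldhb and Gapdh, and W/O IL-10 replicate 1 stands apart for Hif1a.

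Phosphofructokinase commits the sugar to glycolysis, and its platelet, liver and muscle forms are encoded by Pfkp, Pfkl and Pfkm. Pfkp was the abundant form, with 560.5, 557.2 and 550.6 CPM W/O IL-10 and 592.9, 616.1 and 630.6 CPM W/ IL-10. These libraries were tightly grouped and separate, and the log2 fold change was 0.14 ± 0.074 SE with an adjusted p of 0.427 (edgeR). Pfkm measured 15.04, 14.06 and 11.37 CPM W/O IL-10 and 10.01, 10.48 and 10.43 CPM W/ IL-10. The W/ IL-10 libraries lay together under the lowest W/O IL-10 library, with a fold change of 0.764 (95% interval 0.619 to 0.942), an unadjusted p of 0.0176 and an adjusted p of 0.213 (edgeR). A share of 10.21% of the Pfkm exon bases is also annotated to an overlapping transcript on the same strand. Pfkl had means of 72.25 ± 6.173 and 63.98 ± 8.7 CPM (SD, n = 3), and its groups overlapped.

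Expressed as shares of the family's counts per exon kilobase, the 3 phosphofructokinase genes separated by group. Pfkp took 71.86%, 74.31% and 74.81% W/O IL-10 and 79.95%, 77.06% and 78.05% W/ IL-10. The Pfkp share averaged 73.66% ± 1.58 in the control group against 78.36% ± 1.46 in the IL-10 group (SD, n = 3), 4.69 percentage points apart. The Pfkl share had means of 19.19% and 16.36%, and the Pfkm share means of 7.15% and 5.28%, both without overlap between the groups. With the length of the longest transcript in place of all exon bases the difference in the Pfkp share was 4.63 percentage points. These shares are descriptions, since the parts of a whole are not independent and no test was fitted to them. In the other families only the shares of Eno1, Eno3, Ldha and Ldhb were separate between the groups. The shares carry no correction for GC content. With the GC and length correction the log2 fold changes were 0.178 (Pfkp), -0.067 (Pfkl) and -0.307 (Pfkm). Without it they were 0.141, -0.175 and -0.389.

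The remaining genes of the upper pathway, which turns hexose phosphates into triose phosphates, had overlapping groups. Gpi1 (glucose phosphate isomerase) had means of 556.9 ± 21.68 CPM W/O IL-10 and 532.8 ± 21.87 CPM W/ IL-10. Aldoa, the abundant aldolase, measured 898, 750.3 and 742.1 CPM W/O IL-10 and 782.3, 844.2 and 746.1 CPM W/ IL-10. Its highest value was in a W/O IL-10 library and its lowest in another, and the 95% interval of the fold change was 0.846 to 1.164. Aldoc had means of 21.14 and 20.33 CPM, and Tpi1 (triose phosphate isomerase) means of 249 ± 20.99 and 251.5 ± 21.57 CPM. The bifunctional PFK-2 enzymes set fructose 2,6-bisphosphate, the activator of phosphofructokinase. Pfkfb3 had means of 64.75 ± 2.679 and 59.98 ± 2.765 CPM with an adjusted p of 0.539 (edgeR), and the rarer Pfkfb4 had means of 5.044 and 5.142 CPM.

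Gapdh, the reference gene of the study's real-time PCR, opens the energy-yielding steps. It measured 285.1, 249.4 and 255.8 CPM W/O IL-10 and 327.1, 261.5 and 261.9 CPM W/ IL-10. Replicate 1 was the highest library in both groups, and the means were 263.4 ± 19.07 and 283.5 ± 37.74 CPM (SD, n = 3). The fold change was 1.076 with a 95% interval of 0.91 to 1.272, an adjusted p of 0.692 (edgeR), and a log2 fold change of -0.01 without W/ IL-10 replicate 1. Processed copies that share sequence with Gapdh also held counts. Each shared between 1.109% (Gm8927) and 24.598% (Gm7336) of the 50-base stretches of the gene's transcripts. Its own row held 6979, 6028 and 5939 counts W/O IL-10 and 6732, 5889 and 5977 W/ IL-10. The 87 rows of its processed copies in the table held 6972, 7129 and 6931 counts W/O IL-10 and 6005, 7511 and 7044 W/ IL-10, between 89.2% and 127.54% of the gene's own. In W/ IL-10 replicate 1 the gene's row was the highest of its group and the copies' sum the lowest. How a read that fits both was assigned is not given in the sources used here, so the level of Gapdh is uncertain.

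**Figure D3:**
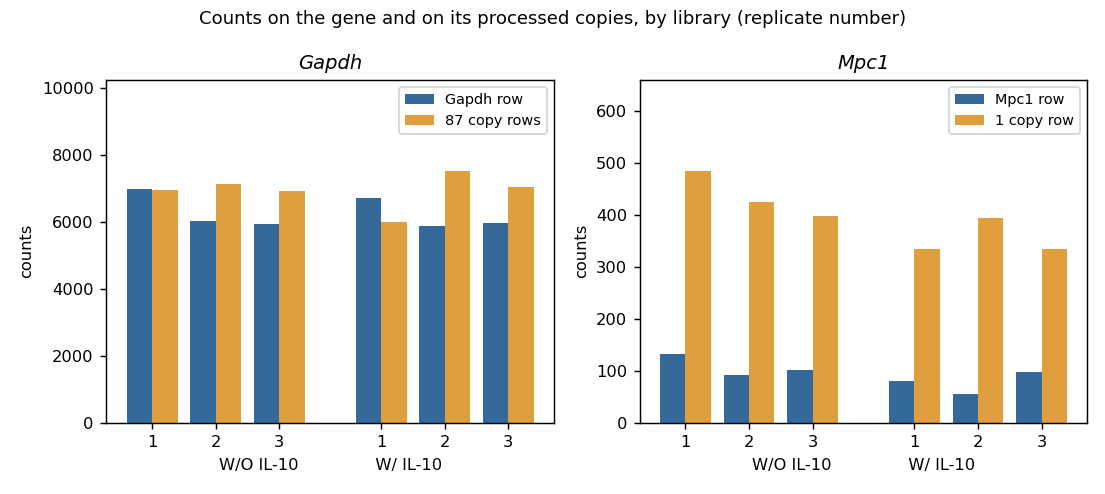
Counts per library on the rows of Gapdh and Mpc1 (blue) and on the rows of their processed copies (orange; 87 rows for Gapdh, 1 for Mpc1), by group and replicate number. The copies hold 89.2% to 127.54% of the counts of the Gapdh row and more counts than the Mpc1 row in each library.

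Pgk1 and Pgam1 encode the kinase and the mutase of the next steps. Pgk1 had means of 435.9 ± 12.83 CPM W/O IL-10 and 453.5 ± 35.8 CPM W/ IL-10, with overlapping groups. Of the 50-base stretches of their transcripts, 53.88% (Pgk1) and 36.16% (Pgam1) also occur in other annotated transcripts, as do 25.99% for Eno1 and 25.77% for Pkm. The copies of Eno1 held 3.11% to 3.93% of the counts of its own row, and adding such copies to their parent genes left all 34 genes uncalled. Pgam1 measured 184.2, 184.2 and 170.1 CPM W/O IL-10 and 188.8, 207.3 and 186.7 CPM W/ IL-10. Its groups were separate by a narrow gap and the adjusted p was 0.541 (edgeR, log2 fold change 0.11 ± 0.077 SE). Bpgm, which makes 2,3-bisphosphoglycerate, measured 20.43, 18.9 and 17.14 CPM W/O IL-10 and 17.01, 16.16 and 15.47 CPM W/ IL-10. The highest W/ IL-10 library lay just under the lowest W/O IL-10 library, and the adjusted p was 0.398 (edgeR).

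Enolase makes phosphoenolpyruvate. Eno1, the form of most tissues, measured 998.1, 979.5 and 953 CPM W/O IL-10 and 912.6, 1095 and 961.3 CPM W/ IL-10. The W/ IL-10 libraries spanned the W/O IL-10 ones, and the fold change was 1.013 (95% interval 0.876 to 1.171). Eno3, the muscle form, measured 17.61, 14.64 and 15.64 CPM W/O IL-10 and 11.42, 13.32 and 13.76 CPM W/ IL-10. Its groups were separate, with a fold change of 0.804 (95% interval 0.662 to 0.977), an unadjusted p of 0.0322 and an adjusted p of 0.279 (edgeR). Eno2, the neuronal form, was the lowest member, with means of 2.223 ± 0.6649 and 1.463 ± 0.3315 CPM, and its groups overlapped. Per exon kilobase Eno1 made up 94.96% ± 0.44 of the 3 enolase genes W/O IL-10, against 95.98% ± 0.32 in the W/ IL-10 libraries (SD, n = 3). The Eno3 share had means of 4.80% and 3.86%, and neither share overlapped between the groups. The difference in the Eno1 share was 1.02 percentage points, and 0.47 with the length of the longest transcript.

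Pkm encodes pyruvate kinase in both of its splice forms, which a gene count does not separate. Pkm (chr9:59656368-59679375, plus strand) measured 752.8, 684.1 and 654.6 CPM W/O IL-10 and 809.3, 856.1 and 818 CPM W/ IL-10. All W/ IL-10 libraries were above all W/O IL-10 libraries, with means of 697.2 ± 50.41 and 827.8 ± 24.88 CPM (SD, n = 3). The fold change was 1.187 (95% interval 1.038 to 1.358, log2 fold change 0.25 ± 0.085 SE), with an unadjusted p of 0.0179 and an adjusted p of 0.213 (edgeR). With the GC and length correction in edgeR the log2 fold change was 0.36 ± 0.072 SE and the adjusted p 0.0259, and the adjusted p ran from 0.0106 to 0.3 over the settings that kept all libraries. Of the Pkm exon bases 15.34% are annotated to another transcript on the same strand.

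Lactate dehydrogenase turns pyruvate into lactate. Ldha (chr7:46841475-46855627, plus strand) measured 811.4, 818.4 and 791.8 CPM W/O IL-10 and 914.2, 1009 and 916.8 CPM W/ IL-10. The W/O IL-10 libraries were close together and the W/ IL-10 libraries were all higher, with means of 807.2 ± 13.78 and 946.5 ± 53.75 CPM (SD, n = 3). The fold change was 1.173 (95% interval 1.032 to 1.332, log2 fold change 0.23 ± 0.081 SE), with an unadjusted p of 0.0201 and an adjusted p of 0.226 (edgeR). The adjusted p of Ldha was 0.073 with the GC and length correction in edgeR and ran from 0.0331, with that correction and the replicate number as a block, to 0.378 over the settings that kept all libraries. Ldhb, whose subunit favours the reverse reaction, measured 7.313, 4.178 and 3.23 CPM W/O IL-10 and 2.964, 3.553 and 3.374 CPM W/ IL-10. Its mean W/O IL-10 rested on replicate 1, the groups overlapped, and the log2 fold change was -0.57 ± 0.30 SE. Per exon kilobase Ldha made up 98.14%, 98.94% and 99.15% of both genes W/O IL-10 and 99.32%, 99.26% and 99.23% W/ IL-10. The ordering of these shares was separate between the groups, and replicate 1 was again the farthest W/O IL-10 library.

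**Figure D4:**
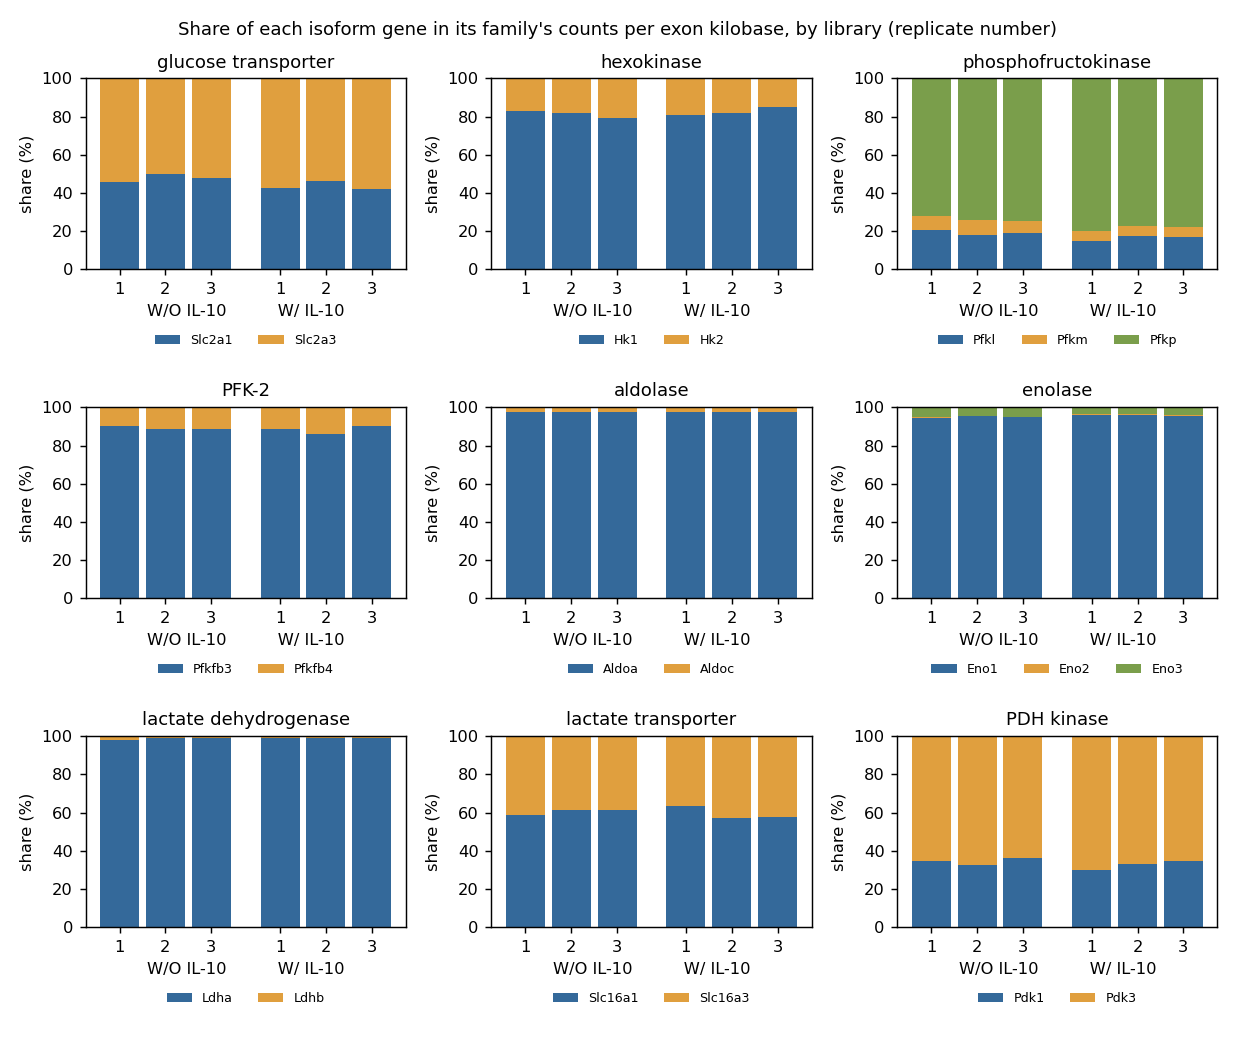
Share (%) of each gene in the counts per exon kilobase of its enzyme or transporter family, stacked to 100% in each library and labelled by replicate number. The Pfkp share is 71.86% to 74.81% W/O IL-10 and 77.06% to 79.95% W/ IL-10, and the Ldha share stays above 98% in all 6 libraries.

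The lactate exporters had overlapping groups. Slc16a1 (MCT1) had means of 71.68 ± 5.665 and 72.17 ± 3.515 CPM, with a 95% interval of the fold change of 0.885 to 1.145. Slc16a3 (MCT4) had means of 56.59 ± 2.199 and 59.32 ± 7.859 CPM (SD, n = 3). Per exon kilobase Slc16a1 made up 60.30% of this pair in the control group and 59.47% in the IL-10 group.

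Mpc1 and Mpc2 form the carrier that takes pyruvate across the inner mitochondrial membrane. Mpc1 measured 5.393, 3.806 and 4.393 CPM W/O IL-10 and 3.936, 2.487 and 4.25 CPM W/ IL-10. Its groups overlapped and the log2 fold change was -0.35 ± 0.25 SE. These values rest on 56 to 132 counts, while the processed copy Mpc1-ps, with which it shares sequence, had 335 to 484 counts. Mpc1 also overlaps a gene on the opposite strand over 23.06% of its exon bases, and whether strand was used in counting is not given in the sources used here. Mpc2 had means of 27.47 ± 6.786 and 26.38 ± 2.925 CPM (SD, n = 3).

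The 4 genes of the pyruvate dehydrogenase complex had the lowest median SE of the pathway steps, 0.075 on the log2 scale, and overlapping groups. Pdha1 and Pdhb, the subunits of its first enzyme, had means of 93.36 and 94.22 CPM and of 91.17 and 88.95 CPM, in the control and the IL-10 group in turn. A share of 16.15% of the Pdha1 exon bases overlaps a gene on the opposite strand. Dlat, the acetyltransferase, had means of 101.4 ± 4.93 and 108.3 ± 5.497 CPM. Dld, the dehydrogenase shared with other complexes, measured 71.3, 89.06 and 89.76 CPM W/O IL-10 and 96.4, 95.08 and 86.54 CPM W/ IL-10. The lowest Dld value, in W/O IL-10 replicate 1, lay well apart from the other 5, and the sign of the Dld difference turned with the GC and length correction (log2 fold change 0.15, and -0.02 corrected). Of the kinases that switch the complex off, the members had means of 67.07 and 65.02 CPM (Pdk1) and 41.89 and 44.78 CPM (Pdk3). For these 6 genes the intervals of the fold change lay within 1.5-fold either way. Another kinase gene, Pdk2, is not a member. It measured 17, 17.54 and 15.72 CPM W/O IL-10 and 10.83, 11.77 and 13.15 CPM W/ IL-10. Pdk2 was thus separate and lower, as 11.2% of all tested genes were. Its log2 fold change was -0.49, with an adjusted p of 0.0764 (edgeR).

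Hif1a (chr12:73901375-73947530, plus strand) measured 309.9, 521.9 and 523 CPM W/O IL-10 and 536.6, 526.4 and 528.2 CPM W/ IL-10. Although the groups did not overlap, 5 of the 6 libraries lay within 521.9 to 536.6 CPM, and W/O IL-10 replicate 1 was far below them. The log2 fold change was 0.23 ± 0.18 SE with an adjusted p of 0.595 (edgeR), and 0.01 without W/O IL-10 replicate 1. Among all 34 members W/O IL-10 replicate 1 was the highest library in 13 and the lowest in 5, where it was the highest in 24.4% and the lowest in 25.1% of all tested genes. Hif1a was 1 of these 5 genes. The 16 tested genes from a list of hypoxia-induced genes outside the pathway included 0 with an adjusted p under 0.05 (edgeR), where 2.19% of all tested genes had one, and 3 at an unadjusted p under 0.05, where 14.7% did. These 3 were Ankrd37 and Bhlhe40, with higher values W/ IL-10, and Adm, with lower ones, and the median log2 fold change of the list was -0.06.

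By level per exon kilobase W/O IL-10, Aldoa (273.7 CPM per kilobase), Ldha (243.9), Pgk1 (194.2), Eno1 (181.6) and Pkm (139.4) were the most abundant members. The order was the same for Aldoa, Ldha, Pgk1, Eno1 and Pkm W/ IL-10 except that Ldha (286 CPM per kilobase) was above Aldoa (271.7). In both groups the gap between the means of Aldoa and Ldha was smaller than the SD of Aldoa. Within libraries the order held, with Aldoa above Ldha in W/O IL-10 replicates 1 to 3 (308.5 over 245.1, 257.7 over 247.2 and 254.9 over 239.2). Ldha was above Aldoa in the W/ IL-10 replicates (276.2 over 268.7, 304.7 over 290 and 277 over 256.3). Pgk1 and Eno1 W/ IL-10 differed by little more than their SD, with Pgk1 above Eno1 in each library. No test was fitted to this order. The order also depended on the length used. Per kilobase of the longest transcript W/O IL-10, Aldoa (514.4 CPM per kilobase) was followed by Eno1 (481.9), Ldha (444.7), Pkm (286.7) and Pgk1 (238.8), so that the same 5 genes led in another order. The hexokinases, Hk1 at 23.58 and Hk2 at 5.439 CPM per kilobase, and the glucose transporters, Slc2a3 at 23.08 and Slc2a1 at 21.17, had lower levels than Tpi1 (90.45) or Gapdh (63.74). The median coefficient of variation between libraries was 7.57% in the control group and 5.81% in the IL-10 group for the members, beside 6.51% and 6.15% for 2923 other tested genes at or above their median level. The members' values include the members under that level, so the sets differed in abundance. Whether members spread more or less than genes of like level was not tested.

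GC content moved with the fold changes. Across tested genes the median log2 fold change was 0.13 for 4061 genes of at most 45% GC, 0.02 and -0.04 for those of 45% to 50% and 50% to 55%, and -0.08 for 3052 genes above 55% GC. Of the members, 4 sat in the first bin (of 4061 tested genes) and 10 in the second (of 3976). The third held 14 (of 3809) and the last 6 (of 3052). With per-library offsets for GC content and exon length the median log2 fold change was 0.07 for the members and 0.014 over all tested genes. With these offsets 2 members, Slc2a3 and Pkm, had an adjusted p under 0.05 (edgeR), where 3.45% of all tested genes did. None of the 34 was called at a 1.5-fold change with them. Hk2, Gpi1, Aldoa, Slc16a1, Pdha1 and Dld changed the sign of their small differences under this correction.

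**Figure D5:**
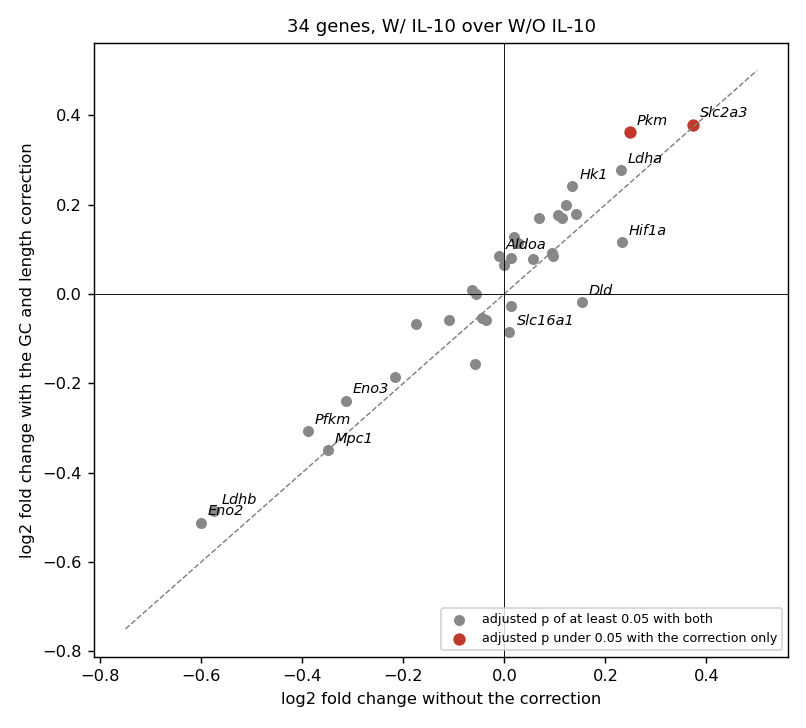
Log2 fold change, W/ IL-10 over W/O IL-10, of each of the 34 genes without (horizontal) and with (vertical) the GC and length correction; the dashed line marks equal values, and red points had an adjusted p under 0.05 with the correction only. Slc2a3 and Pkm are red, at corrected values of 0.38 and 0.36.

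Other genes of the same biochemistry were counted from lists that held 48 genes outside the members (further transporters and their partners, isoenzymes and side steps, pyruvate metabolism, oxygen sensing), of which 34 were tested. With edgeR 2 of them had an adjusted p under 0.05, one higher (1.21% of all tested genes were) and the other lower (0.979%). Slc2a6, a glucose transporter family gene, fell, from 47.72, 56.22 and 48.71 CPM W/O IL-10 to 31.34, 32.2 and 29.31 CPM W/ IL-10. The groups were far apart (50.88 ± 4.645 and 30.95 ± 1.48 CPM, SD, n = 3), with a log2 fold change of -0.72 ± 0.093 SE and an adjusted p of 0.00846 (edgeR), at most 0.0777 with a library left out. Emb, which encodes embigin, a membrane partner of the monocarboxylate transporters, rose, from 145.6, 175.6 and 186.3 CPM W/O IL-10 to 247.3, 234.9 and 263.1 CPM W/ IL-10. Its fold change was 1.469 (95% interval 1.251 to 1.724), just under the 1.5-fold limit, with an adjusted p of 0.0322 (edgeR), at most 0.184 with a library left out. The partner Bsg (basigin) had means of 243.7 ± 15.7 and 247 ± 13.71 CPM. In the list of 7 pentose phosphate genes, all tested, 0 had an adjusted p under 0.05 (edgeR) and 1, Rpe, an unadjusted p under 0.05, where 2.19% and 14.7% of all tested genes did.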

How the data were processed

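RNA-seq was measured in 6 libraries of mouse cDNT, 3 per group, grouped by the labels. The authors deposited 1 table of whole-number counts per Ensembl gene, without normalization. The methods of the study give the NEBNext kit, TopHat and Cufflinks with UCSC annotation, whereas the labels give a TruSeq kit and the submitters' processing notes name HISAT2, HTSeq and GRCm38; versions and the use of strand are not given in the sources used here. Counts of multi-copy genes and of overlapping genes are therefore uncertain.

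The 34 members and the other gene lists were chosen with earlier results of these data known. All members are accounted for, and those with groups that do not overlap and Gapdh are given by library. So is the most abundant hexokinase, phosphofructokinase, aldolase, enolase and lactate dehydrogenase gene. Slc16a1, Pfkfb3, Pdk3 and Mpc2, the more abundant genes of their steps, are given as group means. Bsg, Pdk2, Rpe, Ankrd37, Bhlhe40, Adm and the single marker genes were named after their values were seen. Symbols were matched to GENCODE M21 (29332 of 29393 identifiers found), and of 2 identifiers for Aldoa the one overlapping the RefSeq gene was used. The deposited counts were fitted in edgeR 4.0.16 under R 4.3.3 (TMM, glmQLFit, glmQLFTest). Genes needed 10 counts or more in 3 or more libraries, which left 14916, and p-values were adjusted by Benjamini-Hochberg over these. The SE of a log2 fold change is its size over the root of F. Fold changes are without shrinkage. The fit was tested on simulated data. Depth was 21619420 to 23967088 counts, and floors cover counting error only.

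Alternatives were DESeq2 1.42.0, upper-quartile factors, other filters on low counts, limma-voom (limma 3.58.1), the replicate number as a block, offsets from splines on GC content and log2 exon length, and each library left out. After seeing the data, counts of 37 rows of copies were added to their parent genes. These copies shared at least 10% of the parent's 50-base stretches. Also after seeing the data, 1.5-fold was set as the null hypothesis (glmTreat), and levels were ordered per kilobase of the longest transcript.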

Additional observations from a re-analysis of the deposited data

How the results depend on the processing

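No member was called at a 1.5-fold change under any of the alternatives run, including glmTreat and the addition of copies. The number of members with an adjusted p under 0.05 was 0 in edgeR as reported and 1 with DESeq2, 1 without a filter on low counts, 2 with the GC and length correction and 3 with that correction and the replicate block (Slc2a3 in each, with Pkm and then Ldha added), where 696, 1239, 514 and 835 of all tested genes passed. With each library left out it ran from 0 to 1, the 1 being Slc2a3 without W/O IL-10 replicate 1 (3.58% of all tested genes passed). The count of other pathway genes, 2 as reported, was 3 with DESeq2, 4 without the filter and ran from 0 to 2 with a library left out: 0 without W/ IL-10 replicate 1 or 3, and 1 without W/O IL-10 replicate 2 or W/ IL-10 replicate 2. In these 4 fits 57, 35, 75 and 104 of all tested genes passed, against 327 with all libraries. The members' median log2 fold change ran from -0.048 to 0.052 with a library left out. The cause of these changes was not tested.

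The correlations of same-numbered libraries' deviations from their group means were 0.0524, -0.0573 and 0.1136, and those of differently numbered libraries ran from -0.1063 to 0.0409. These values do not settle whether the replicate numbers pair the samples. With the replicate block 0 members and 2 other pathway genes passed, and 283 of all tested genes in place of 327. Added to the GC and length correction, the block instead raised the number of all tested genes that passed, to 835 in place of 514.

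Log2 fold changes near 0 turned sign in places, none past the threshold. They were, with upper-quartile factors, -0.005 (Tpi1), -0.008 (Slc16a1) and -0.006 (Pdha1); with at least 10 counts in every library, -0.003 (Slc16a1); for Hk2, 0.007 with limma-voom and 0.003 with the replicate block; with the GC and length correction, 0.064 (Hk2), 0.009 (Gpi1), 0.084 (Aldoa), -0.085 (Slc16a1), -0.028 (Pdha1) and -0.019 (Dld); and with that correction and the replicate block, 0.071 (Hk2), 0.008 (Gpi1), 0.086 (Aldoa), -0.085 (Slc16a1), -0.026 (Pdha1) and -0.020 (Dld). With a library left out they ranged from -0.119 to 0.134 (Hk2), -0.073 to 0.074 (Aldoa), -0.111 to 0.013 (Aldoc), -0.058 to 0.069 (Tpi1), -0.098 to 0.126 (Pfkfb4), -0.01 to 0.16 (Gapdh), -0.006 to 0.107 (Pgk1), -0.061 to 0.073 (Eno1), -0.056 to 0.061 (Slc16a1), -0.023 to 0.166 (Slc16a3), -0.174 to 0.153 (Mpc2), -0.033 to 0.032 (Pdha1) and -0.1 to 0.003 (Pdhb). The difference in the Eno1 share was 0.471 percentage points with the longest transcript. Depth limits the members under 10 CPM most.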
